A study of Mus musculus with 4 samples.

Results

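Genes of the Wnt pathway were examined in mouse liver tumours: the ligands, their secretion factors and receptors, secreted inhibitors, the R-spondin axis, and the cytoplasmic and nuclear components with feedback targets of the pathway. The members were all genes whose symbol, found from the Ensembl identifier without its version, matched a fixed pattern of family names. The pattern took 60 of 48526 gene identifiers in the count tables, and 39 of the 60 had enough reads to be tested. Bulk RNA was sequenced from tumours of C57BL/6 mice fed Akkermansia muciniphila, a mucin-degrading gut bacterium (AKK, 2 libraries), and from tumours of mice given phosphate-buffered saline (PBS, 2 libraries). AKK mice received 5000000000 colony-forming units by mouth for 2 weeks before a methionine- and choline-deficient (MCD) diet and through the 2 weeks of that diet, and PBS mice received PBS on the same schedule. Mice of both groups ate the MCD diet, which produces fatty liver, and both carried luciferase-labelled RIL-175 cells, 1 mouse hepatoma line implanted surgically into the liver. For 6 days after surgery the bacterium was not given, and it was then resumed to the end. The comparison asks how the tumour transcriptome differs after feeding of the bacterium.

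Wnt proteins are lipid-modified secreted ligands that bind Frizzled receptors together with the co-receptors LRP5 and LRP6. Binding stops the destruction complex, built on AXIN, from removing beta-catenin, which then enters the nucleus and switches on target genes with TCF and LEF factors. R-spondins strengthen the signal by drawing the ubiquitin ligases RNF43 and ZNRF3 away from Frizzled receptors, and several targets, such as Axin2, Nkd1, Notum, Rnf43 and Lgr5, act back on the pathway. In the liver, Wnt ligands and R-spondin 3 from endothelial cells near the central vein set the pericentral programme of hepatocytes, and beta-catenin is often mutated in hepatocellular carcinoma.

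The libraries held 48912489 to 59027227 reads on genes. Values are given as CPM, reads of a gene scaled to library size with TMM factors, and fold changes as log2 values of AKK over PBS with their standard error (SE) from edgeR's quasi-likelihood test, Benjamini-Hochberg adjusted over 17479 genes at 0.05. There were n = 2 libraries per group, titled biological replicates, and the labels do not say whether they are tumours of separate mice. A p-value here weighs the group difference only against the spread between these libraries, which need not be the spread between mice. The labels name no batch. File naming differed between the AKK and PBS tables, and anything this naming marks cannot be told apart from feeding. Mitochondrial genes took 3.92% of reads in AKK 1, against 2.33% in AKK 2 and 1.64 to 1.78% in PBS. Skeletal muscle markers summed to 5.06 and 6.44 CPM in AKK 1 and AKK 2, against 306 and 10.8 CPM in PBS 1 and PBS 2. Hepatocyte markers, 18 genes, summed to 693 and 315 CPM in AKK, against 78.2 and 176 CPM in PBS. The most abundant of them, the transcription factor Hnf4a, overlapped between the groups (48.7 and 119 CPM in AKK, 74.9 and 168 CPM in PBS). Albumin, which defines mature hepatocytes, read 156 and 25.4 CPM in AKK against 0.300 and 0.988 CPM in PBS. Krt8, an epithelial keratin, read 2511 and 2610 CPM in AKK against 1443 and 2632 CPM in PBS. In such bulk samples, fewer cells of a type and less RNA per cell cannot be told apart.

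The promoters of 4 members are shown because 3 of these genes (Sfrp2, Rnf43 and Tcf7l2) were among the 4 members that DESeq2 called, and the remaining one, Wnt4, was the ligand higher in AKK with the smallest p. Each is RefSeq's window of 250 bases before to 50 bases after the gene's start on GRCm38.p6, 5′ to 3′ on the gene's strand, with the 50 bases after the start in capitals. They lie at chr3:83766071-83766370, plus strand (Sfrp2), chr11:87662837-87663136, plus strand (Rnf43), chr19:55741560-55741859, plus strand (Tcf7l2) and chr4:137277385-137277684, plus strand (Wnt4). For Rnf43 and Tcf7l2 the table lists 2 starts, and the upstream one is shown.
Sfrp2: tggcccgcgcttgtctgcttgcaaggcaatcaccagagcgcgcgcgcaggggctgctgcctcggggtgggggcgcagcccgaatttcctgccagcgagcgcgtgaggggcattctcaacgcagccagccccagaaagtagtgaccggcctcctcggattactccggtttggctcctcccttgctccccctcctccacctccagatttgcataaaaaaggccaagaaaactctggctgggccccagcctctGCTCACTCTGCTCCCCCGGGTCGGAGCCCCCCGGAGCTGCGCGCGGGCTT
Rnf43: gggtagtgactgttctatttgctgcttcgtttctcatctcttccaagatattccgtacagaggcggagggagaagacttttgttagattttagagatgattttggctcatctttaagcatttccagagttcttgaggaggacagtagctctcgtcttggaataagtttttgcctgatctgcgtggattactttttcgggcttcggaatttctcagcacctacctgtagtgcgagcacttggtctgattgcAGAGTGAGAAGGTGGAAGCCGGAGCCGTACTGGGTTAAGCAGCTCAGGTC
Tcf7l2: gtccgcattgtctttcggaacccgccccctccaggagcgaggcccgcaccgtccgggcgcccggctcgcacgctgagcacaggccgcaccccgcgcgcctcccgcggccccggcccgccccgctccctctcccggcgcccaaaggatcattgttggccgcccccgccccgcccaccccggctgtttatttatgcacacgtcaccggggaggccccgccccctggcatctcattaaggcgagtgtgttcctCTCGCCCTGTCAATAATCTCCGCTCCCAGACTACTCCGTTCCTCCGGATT
Wnt4: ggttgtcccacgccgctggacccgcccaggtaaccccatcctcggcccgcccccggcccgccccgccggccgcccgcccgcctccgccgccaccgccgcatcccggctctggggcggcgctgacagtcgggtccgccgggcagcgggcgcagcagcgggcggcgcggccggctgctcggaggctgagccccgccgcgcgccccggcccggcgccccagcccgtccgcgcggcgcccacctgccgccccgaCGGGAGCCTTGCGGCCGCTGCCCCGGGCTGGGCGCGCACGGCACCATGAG

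Of the 60 members, 39 matched a window in that table, in 48 windows. The core of the TCF and LEF site, searched as CTTTGAT and CTTTGAA on both strands, occurred in 3 of the 48 windows (6.25%), against 8.65% of all 32851 windows, and in none of the 4 printed above. It was found once each in windows of Wnt11, Wnt5b and Dkk1, shown with their flanks and the core in capitals, since TCF and LEF factors are the nuclear arm of this pathway. They lie at chr7:98835050-98835078, plus strand (Wnt11), chr6:119449440-119449468, minus strand (Wnt5b) and chr19:30549596-30549624, minus strand (Dkk1), on GRCm38.p6. The core ends 44 bases before the upstream one of 2 listed starts of Wnt11, 64 before the most downstream of 3 listed starts of Wnt5b, and 110 before the start of Dkk1.
Wnt11: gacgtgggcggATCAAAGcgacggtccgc
Wnt5b: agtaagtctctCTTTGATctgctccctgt
Dkk1: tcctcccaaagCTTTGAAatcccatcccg

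The Wnt11 match reads as ATCAAAG on the gene's strand, the reverse complement of CTTTGAT. Of these 3 genes, Wnt11 and Wnt5b are described with the ligands below and Dkk1 had 0 reads in every library. Member windows held a median of 24.5 CG dinucleotides, against 7 in all windows. The printed windows held 22 (Sfrp2), 10 (Rnf43), 34 (Tcf7l2) and 51 (Wnt4).

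Across the pathway, 0 of the 39 tested members passed the threshold in edgeR, where 0.00572% of all genes did. DESeq2 called 4 members (10.3%), against 5.02% of all genes: Tcf7l2 was higher in AKK, where 2.04% of all genes were called, and Sfrp2, Lgr5 and Rnf43 were lower, where 2.98% were. The members called changed with the library left out, where each fit held only 1 library in a group. Without AKK 1, DESeq2 called 2 members (Rnf43 and Sfrp2) and 1.46% of all genes. Without AKK 2 it called 6 (Fzd1, Fzd5, Lrp6, Sfrp2, Wnt5a and Wnt7b, all lower) and 8.91% of all genes. Without PBS 1 it called 1 (Sfrp1, higher) and 2.21%, and without PBS 2 it called 3 (Rspo3 higher, Sfrp2 and Sfrp4 lower) and 3.21%. Tcf7l2 and Lgr5 were called in none of these 4 fits, Rnf43 in 1 and Sfrp2 in 3. Before adjustment, 9 members (23.1%) had an edgeR p under 0.05, against 15.3% of all genes. Of these, Tcf7l2, Wnt4 and Rspo3 were higher in AKK, and Sfrp2, Lgr5, Rnf43, Fzd5, Lrp6 and Wnt5a were lower. The median log2 fold change of the tested members was -0.42, against 0.02 over all genes, with 27 of 39 members negative and 12 positive (30.8%, against 51.8% of all genes). Both AKK libraries lay below both PBS libraries for 14 members (35.9%, against 24.7% of all genes) and above both for 5 (12.8%, against 26.7%). These counts describe the members that passed the filter on low counts, and not all 60. Sfrp2, counted among the lower members each time, passed that filter only through its PBS reads, so its direction was fixed by it.

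**Figure D1:**
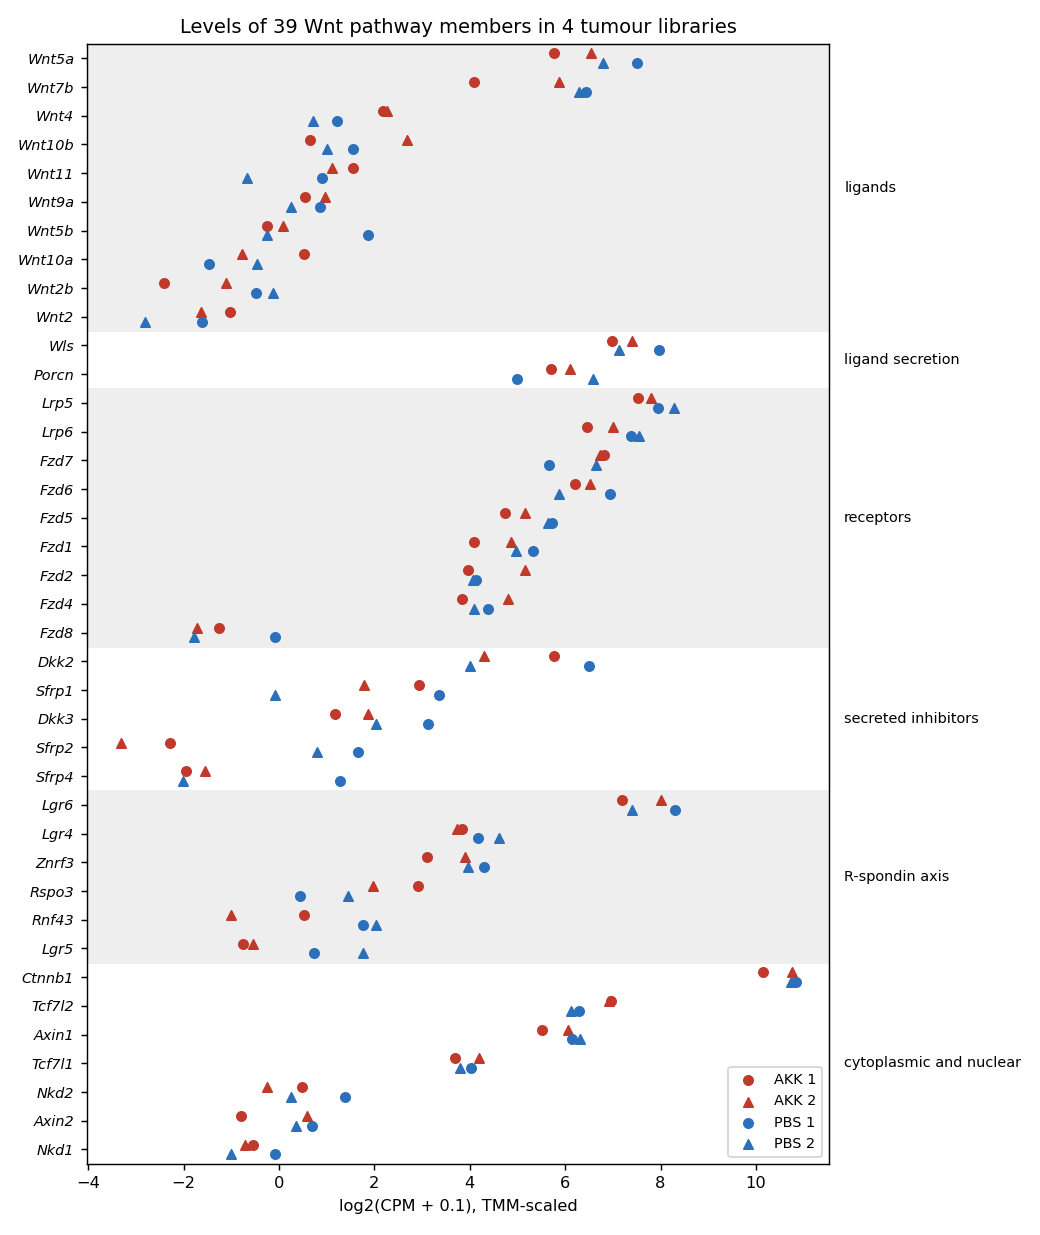
Levels of the 39 tested members in each library, as log2(CPM + 0.1), grouped by role and ordered by mean level; red symbols are AKK, blue symbols PBS, circles library 1 and triangles library 2. Sfrp2, Lgr5 and Rnf43 show both red symbols left of both blue ones, Tcf7l2, Wnt4 and Rspo3 show both right of them, and Ctnnb1 lies highest.

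The direction of that median turned with PBS 1. Without PBS 1 the median over 39 members was 0.13 and 18 were negative, and without PBS 2 it was -0.65. PBS 1 read at least 2-fold above PBS 2 for 10 of 39 members (25.6%), against 6.17% of all genes, on the log2(CPM + 0.1) scale. The widest such gaps belonged to the secreted inhibitors. Skeletal muscle markers were high in the same library, as given above, and their part in these gaps was not tested.

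Among the ligands, none passed in edgeR or DESeq2, and Wnt5a and Wnt7b made up most of the summed level. Wnt5a (lower values in AKK) and Wnt4 (higher values in AKK) had an unadjusted edgeR p under 0.05. Of 19 ligands, 10 were tested. Wnt5a, the prototype of ligands that signal without beta-catenin, read 54.7 and 93.2 CPM in AKK 1 and AKK 2 against 181 and 111 CPM in PBS 1 and PBS 2. The groups did not overlap, AKK 1 was lowest and PBS 1 highest (log2 fold change -0.98, SE 0.35, edgeR adjusted p = 0.293). Its log2 fold change was -0.64 without AKK 1 and -0.58 without PBS 1. Wnt7b, a ligand of the beta-catenin branch, read 16.9 and 58.9 CPM in AKK against 86.6 and 77.8 CPM in PBS (-1.12, SE 0.55, edgeR adjusted p = 0.383). AKK 1 was the lowest library: without AKK 1 the log2 fold change was -0.48, and without AKK 2 it was -2.29. Wnt4, which has roles in kidney and female reproductive tract development, read 4.42 and 4.68 CPM in AKK against 2.21 and 1.53 CPM in PBS (1.28, SE 0.41, edgeR adjusted p = 0.265). Both AKK values of Wnt4 exceeded both PBS values, and the log2 fold change lay between 1.01 and 1.56 with each library left out.

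The other tested ligands were low, and most did not separate the groups. Wnt11, a ligand of cell movements in development, read 2.81 and 2.07 CPM in AKK against 1.78 and 0.526 CPM in PBS (log2 fold change 1.08, SE 0.66), with AKK higher in both. Wnt2b read 0.0885 and 0.360 CPM in AKK against 0.619 and 0.820 CPM in PBS, with AKK lower in both. Of the stranded reads at Wnt2b, 28.9% lay on the gene's own strand: the opposite strand held 65 and 58 reads in AKK and 60 and 58 in PBS. In the other tested members the share on the own strand was 93.9% or more. Wnt10b read 1.47 and 6.30 CPM in AKK against 2.85 and 1.91 CPM in PBS, so AKK 2 was high and the groups overlapped. Wnt5b read 0.743 and 0.959 CPM in AKK against 3.54 and 0.736 CPM in PBS, where PBS 1 alone stood high. Wnt9a, Wnt10a and Wnt2 also overlapped, at 0.0421 to 1.85 CPM.

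Compared per kilobase of exon, the summed ligand level was 14.1 and 28.8 CPM per kb in AKK, against 44.8 and 32.2 CPM per kb in PBS. Wnt5a and Wnt7b together held 74.2% and 83.0% of that sum in AKK, against 91.0% and 93.2% in PBS. All ligands other than these summed to 3.63 and 4.89 CPM per kb in AKK, against 4.02 and 2.19 CPM per kb in PBS. The lower total in AKK therefore lay in Wnt5a and Wnt7b, and the other ligands overlapped between the groups. Wnt4 held 7.50% and 3.87% in AKK, against 1.18% and 1.14% in PBS.

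**Figure D2:**
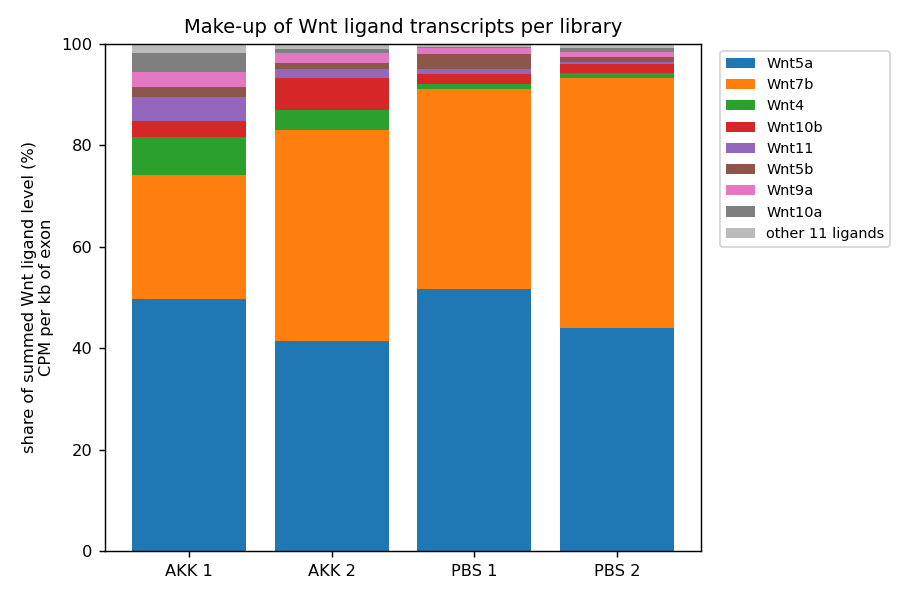
Share of the summed Wnt ligand level (CPM per kb of exon, y axis, percent) held by each ligand in the 4 libraries, as stacked bars. Wnt5a and Wnt7b fill 74.2% and 83.0% of the AKK bars and 91.0% and 93.2% of the PBS bars, with a wider Wnt4 band in AKK.

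The remaining 9 ligands had too few reads to test. Wnt3, Wnt3a, Wnt8a and Wnt16 had 0 reads in all 4 libraries, which allows up to 0.0514 to 0.0631 CPM in a library (3 reads, counting error only). Wnt7a had 5 and 13 reads in AKK against 0 and 1 in PBS. Wnt9b, with Wnt2 a ligand of liver endothelial cells, had 5 and 3 reads in AKK against 1 and 0 in PBS, and Wnt2 had 22 and 13 reads against 12 and 2. Markers of liver sinusoidal endothelial cells, 8 genes, summed to 131 and 98.2 CPM in AKK against 197 and 118 CPM in PBS. Of these, 7 were tested, 1 was higher in both AKK libraries (14.3%, against 26.7% of all genes) and 1 lower in both (14.3%, against 24.7%). Stab2, a receptor of sinusoids, read 2.65 and 0.822 CPM in AKK against 0.131 and 0.126 CPM in PBS, and Clec4g had 30 and 5 reads against 0 and 0. Stab2 was the 1 tested marker higher in both AKK libraries. It passed the filter only through its AKK reads, so it could only be higher in AKK. Stab2 and Clec4g were picked after their values were seen. The most abundant markers of the list, Bmp2 (45.2 and 35.9 CPM in AKK, 80.5 and 41.5 CPM in PBS) and Fcgr2b (40.7 and 31.6 CPM in AKK, 52.6 and 33.3 CPM in PBS), were picked by level. The part of these cells in the ligand values was not tested.

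The secretion factors did not separate the groups. Wls, the carrier that brings Wnt proteins to the cell surface, read 126 and 168 CPM in AKK against 251 and 140 CPM in PBS (log2 fold change -0.41, SE 0.33). Porcn, the acyltransferase that attaches the lipid, read 52.2 and 68.9 CPM in AKK against 31.8 and 95.2 CPM in PBS (-0.07, SE 0.50). The groups overlapped for both, and PBS 1 was the highest library for Wls and the lowest for Porcn.

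Among the receptors, none passed in edgeR or DESeq2. Lrp6 and Fzd5 had an unadjusted edgeR p under 0.05, both with lower values in AKK. Of 12 receptors, 9 were tested, and 4 had lower values in both AKK libraries (Fzd1, Fzd5, Lrp5 and Lrp6; 44.4%, against 24.7% of all genes) and 1 higher values in both (Fzd7; 11.1%, against 26.7%). Lrp6, a co-receptor of the beta-catenin branch, read 88.0 and 127 CPM in AKK against 166 and 188 CPM in PBS (log2 fold change -0.72, SE 0.24, edgeR adjusted p = 0.280). Its close relative Lrp5 read 183 and 221 CPM in AKK against 248 and 311 CPM in PBS (-0.47, SE 0.23, edgeR adjusted p = 0.382). AKK 1 was the lowest library for both. Fzd5, a Frizzled receptor of gut epithelium and other tissues, read 26.8 and 35.4 CPM in AKK against 52.4 and 49.8 CPM in PBS (-0.72, SE 0.21, edgeR adjusted p = 0.247). The log2 fold change of Fzd5 lay between -0.94 and -0.53 with each library left out. Fzd1 read 16.9 and 28.9 CPM in AKK against 40.3 and 31.1 CPM in PBS (-0.64, SE 0.31).

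Fzd7, often studied in liver cancer as a receptor of the beta-catenin branch, read 113 and 106 CPM in AKK against 50.3 and 99.5 CPM in PBS (log2 fold change 0.54, SE 0.33, edgeR adjusted p = 0.461). PBS 2 lay just under AKK 2, and without PBS 1 the log2 fold change was 0.13. Fzd2, Fzd4, Fzd6 and Fzd8 overlapped between the groups. Fzd6 read 74.1 and 91.1 CPM in AKK against 123 and 58.1 CPM in PBS, and Fzd2 15.6 and 35.6 CPM in AKK against 17.4 and 16.7 CPM in PBS. Fzd3, Fzd9 and Fzd10 had at most 10 reads in any library and were not tested. Per kilobase of exon, the 4 receptors with the highest mean level over the libraries were Lrp5 (18.8 and 22.7 CPM per kb in AKK, 25.5 and 31.9 in PBS), Fzd7 (24.8 and 23.4 in AKK, 11.1 and 22.0 in PBS), Fzd6 (15.4 and 18.9 in AKK, 25.6 and 12.1 in PBS) and Lrp6 (6.43 and 9.32 in AKK, 12.1 and 13.8 in PBS). The ranges of Lrp5, Fzd7 and Fzd6 overlapped. Fzd1, Fzd5, Fzd2, Fzd4 and Fzd8 followed, with means of 6.98 CPM per kb for Fzd1 and 0.0651 CPM per kb for Fzd8.

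Among the secreted inhibitors, Sfrp2 was near 0 in AKK tumours and present in PBS tumours. Sfrp2, a secreted Frizzled-related protein that binds Wnt ligands and is made by fibroblasts, had 6 and 0 reads in AKK against 162 and 78 reads in PBS. That is 0.106 and 0 CPM in AKK against 3.04 and 1.64 CPM in PBS, and the groups did not overlap. Its log2 fold change was -5.42 (SE 1.13, edgeR adjusted p = 0.186, DESeq2 adjusted p = 1.73e-05). Sfrp2 passed the filter only through its PBS reads, so it could only differ in this direction. Markers of fibroblasts and stellate cells, 16 genes, summed to 1028 and 1551 CPM in AKK against 2287 and 819 CPM in PBS. Among them, 7 were lower in both AKK libraries (43.8%, against 24.7% of all genes) and 2 higher in both (12.5%, against 26.7%). Of these 16 markers, DESeq2 called 4 lower (25.0%, against 2.98% of all genes) and 0 higher. Their leading genes Col1a1 (387 and 577 CPM in AKK, 624 and 242 in PBS) and Col3a1 (264 and 448 CPM in AKK, 662 and 172 in PBS) overlapped between the groups. The part of fibroblast content in the Sfrp2 difference was not tested.

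The other tested inhibitors overlapped between the groups, with Dkk3 as the exception. Dkk3, a Dickkopf protein whose effect on Wnt signalling is disputed, read 2.16 and 3.53 CPM in AKK against 8.60 and 3.97 CPM in PBS (log2 fold change -1.15, SE 0.52), with AKK lower in both. Without PBS 1 its log2 fold change was -0.48. Dkk2, a Dickkopf protein that binds LRP5 and LRP6, read 54.6 and 19.7 CPM in AKK against 91.0 and 15.9 CPM in PBS (-0.52, SE 0.83). Library 1 was the higher one in both groups. Sfrp1 read 7.57 and 3.34 CPM in AKK against 10.1 and 0.841 CPM in PBS (-0.01, SE 1.04). Sfrp4 read 0.159 and 0.240 CPM in AKK against 2.32 and 0.147 CPM in PBS, with PBS 1 alone high. Without PBS 1 the log2 fold change was 1.22 for Dkk2 and 2.69 for Sfrp1. The PBS 1 value was 5.70 times the PBS 2 value for Dkk2, 10.8 times for Sfrp1 and 9.81 times for Sfrp4, on the CPM + 0.1 scale. Fibroblast markers summed to 2287 CPM in PBS 1 and 819 CPM in PBS 2, the same direction as these gaps. In AKK the markers summed to 1028 CPM in AKK 1 and 1551 CPM in AKK 2. There Dkk2 and Sfrp1 were higher in AKK 1, and Sfrp4 in AKK 2. The part of fibroblast content in these gaps was not tested. Dkk1 and Dkk4 had 0 reads in every library, Sfrp5 and Wif1 had 3 and 6 reads in PBS 1 and 0 elsewhere, and Notum, a deacylase that inactivates Wnt proteins, had 15 and 2 reads in AKK against 3 and 3 in PBS.

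**Figure D3:**
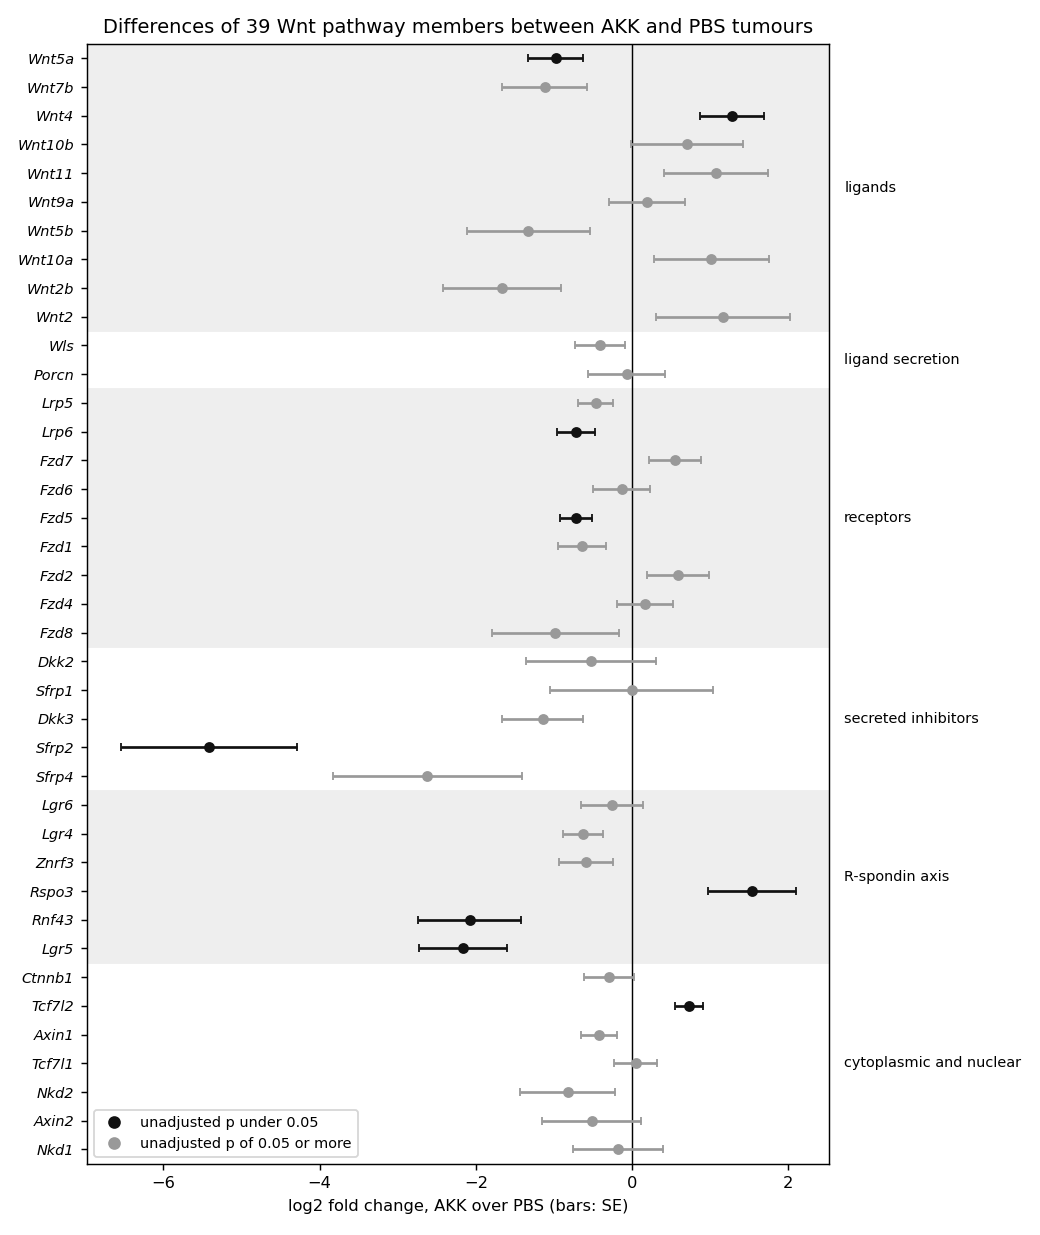
Log2 fold change of AKK over PBS for the 39 tested members (points; bars are SE from edgeR, n = 2 libraries per group), grouped by role; black points have an unadjusted p under 0.05. Sfrp2 lies farthest left at -5.42, Rspo3 farthest right at 1.53, and all 5 secreted inhibitors lie at or left of 0.

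In the R-spondin axis, the stem cell receptor gene Lgr5 and the ubiquitin ligase gene Rnf43 were called lower in AKK tumours by DESeq2 and not by edgeR, and Rspo3 had higher values at an unadjusted edgeR p under 0.05. Of 9 members, 6 were tested: 4 had lower values in both AKK libraries (66.7%, against 24.7% of all genes), 1 had higher values in both (16.7%, against 26.7%), and Lgr6 overlapped. Lgr5, an R-spondin receptor and beta-catenin target that marks intestinal stem cells and is expressed in pericentral hepatocytes, read 0.495 and 0.582 CPM in AKK against 1.56 and 3.30 CPM in PBS. Both PBS libraries were higher, PBS 2 most (log2 fold change -2.17, SE 0.57, edgeR adjusted p = 0.219, DESeq2 adjusted p = 0.0205). In reads these were 28 and 34 in AKK against 83 and 157 in PBS. Rnf43, which removes Frizzled receptors from the cell surface and is a target of the pathway, read 1.33 and 0.394 CPM in AKK against 3.30 and 3.97 CPM in PBS (-2.08, SE 0.66, edgeR adjusted p = 0.262, DESeq2 adjusted p = 0.0373). AKK 2 was lowest, with 23 reads: the log2 fold change was -3.19 without AKK 1 and -1.46 without AKK 2. Znrf3, its homologue, read 8.49 and 14.8 CPM in AKK against 19.7 and 15.4 CPM in PBS (-0.59, SE 0.34), with AKK 2 just under PBS 2.

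Lgr4, the widely expressed R-spondin receptor, read 14.3 and 13.2 CPM in AKK against 17.8 and 24.5 CPM in PBS (log2 fold change -0.62, SE 0.25, edgeR adjusted p = 0.326). Lgr6, a marker of skin and other epithelial stem cells, read 147 and 257 CPM in AKK against 316 and 168 CPM in PBS (-0.26, SE 0.40). Per kilobase of exon it read 21.5 and 37.6 CPM per kb in AKK against 46.1 and 24.5 in PBS, second to Ctnnb1 in the mean over the 4 libraries. Fzd7 lay above it in AKK 1, and Lrp5 and Porcn in PBS 2. Lgr4 averaged 2.96 and Lgr5 0.145 CPM per kb over the 4 libraries, against 32.4 for Lgr6. Rspo3, the R-spondin of central vein endothelium in normal liver, read 7.43 and 3.82 CPM in AKK against 1.26 and 2.63 CPM in PBS (1.53, SE 0.56, edgeR adjusted p = 0.297). AKK 1 was highest, and without AKK 1 the log2 fold change was 0.98. General endothelial markers, 12 genes, summed to 46.6 and 42.9 CPM in AKK against 121 and 85.6 CPM in PBS. Of these markers, 10 were lower in both AKK libraries (83.3%, against 24.7% of all genes) and 0 higher in both (against 26.7%). Pecam1, the most abundant of them, read 10.3 and 10.6 CPM in AKK against 28.6 and 19.9 CPM in PBS. The part of endothelial cells in the Rspo3 values was not tested. Rspo1 and Rspo2 had at most 5 reads in a library and Rspo4 had 0.

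Of the cytoplasmic and nuclear members, Tcf7l2 was called higher in AKK tumours by DESeq2 and not by edgeR. Tcf7l2, the TCF factor that pairs with beta-catenin in liver and gut, read 125 and 122 CPM in AKK against 78.6 and 69.6 CPM in PBS. The libraries of each group lay close together and the groups did not overlap (log2 fold change 0.73, SE 0.18, edgeR adjusted p = 0.206, DESeq2 adjusted p = 0.0477). With each library left out its log2 fold change lay between 0.62 and 0.82, and DESeq2 called it in none of the 4 fits. Its relative Tcf7l1, known mostly as a repressor, read 12.8 and 18.1 CPM in AKK against 16.1 and 13.9 CPM in PBS (0.05, SE 0.27). Lef1 had 3 to 10 reads per library and was not tested.

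Beta-catenin itself (Ctnnb1) was the most abundant member, also per kilobase of exon, and overlapped between the groups. It read 1142 and 1737 CPM in AKK against 1825 and 1709 CPM in PBS (log2 fold change -0.30, SE 0.32, edgeR adjusted p = 0.673). AKK 1 was low, and without AKK 1 the log2 fold change was -0.02. Axin1, the scaffold of the destruction complex, read 45.8 and 66.5 CPM in AKK against 70.8 and 79.8 CPM in PBS (-0.42, SE 0.24), with AKK lower in both. The feedback target Axin2 read 0.478 and 1.40 CPM in AKK against 1.52 and 1.18 CPM in PBS (-0.52, SE 0.64). Without AKK 1 its log2 fold change was 0.06. The inhibitors of Dishevelled, Nkd1 and Nkd2, also feedback genes, overlapped between the groups: Nkd1 read 0.584 and 0.514 CPM in AKK against 0.843 and 0.400 CPM in PBS.

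**Figure D4:**
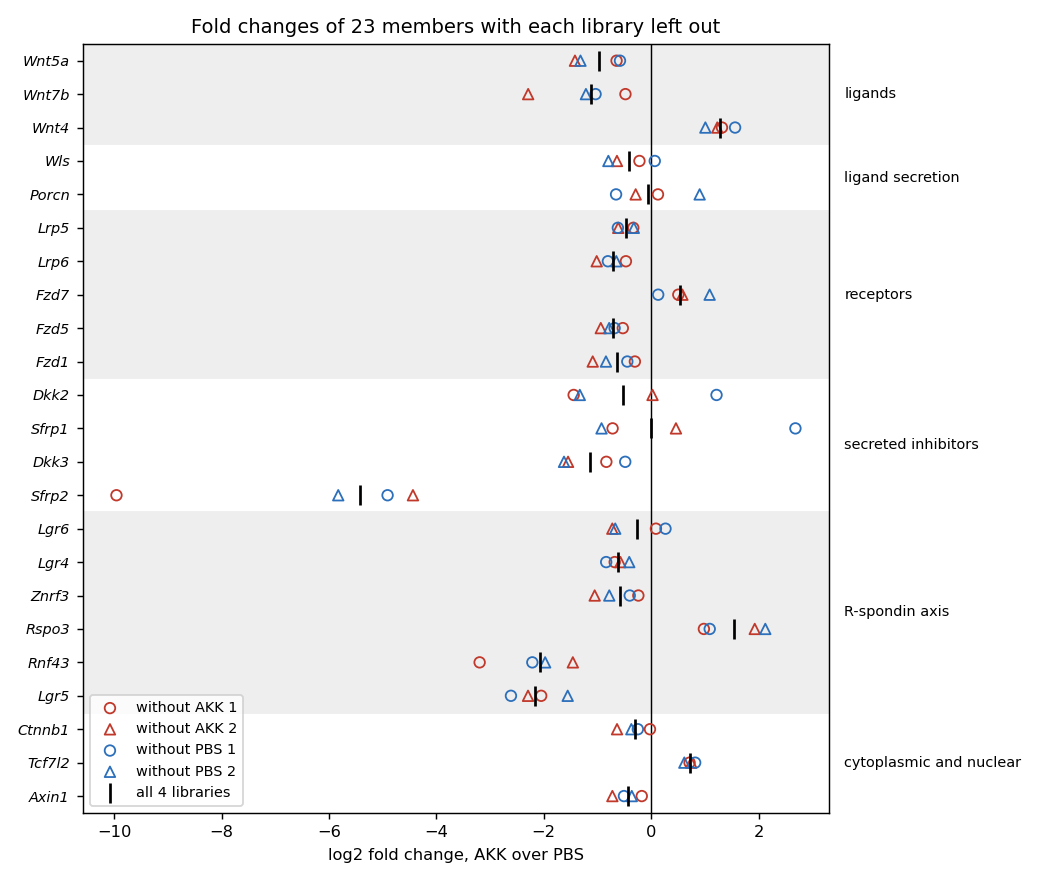
Log2 fold change of AKK over PBS for the 23 members described with full values, with all 4 libraries (black ticks) and with each library left out (open red symbols without an AKK library, open blue symbols without a PBS library). Tcf7l2, Wnt4, Lgr5, Rnf43 and Sfrp2 lie on 1 side of 0 throughout, while Dkk2, Sfrp1, Porcn, Lgr6 and Wls cross it; the Sfrp2 value without AKK 1 is set against a library with 0 reads and depends on the prior count.

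The further genes of the pathway came from 5 lists of genes that are not members. In the list of cytoplasmic and nuclear signalling genes, 26 of 26 were tested, 12 had lower values in both AKK libraries (46.2%, against 24.7% of all genes) and 4 higher values in both (15.4%, against 26.7%), and 4 were lower and 1 higher at an unadjusted p under 0.05, against 8.62% and 6.7% of all genes. Tnks, a tankyrase that marks AXIN for removal, read 126 and 150 CPM in AKK against 259 and 250 CPM in PBS (log2 fold change -0.88, SE 0.20, edgeR adjusted p = 0.192, DESeq2 adjusted p = 0.00874). Apc, a scaffold of the destruction complex, read 57.1 and 87.6 CPM in AKK against 132 and 164 CPM in PBS (-1.03, SE 0.27, edgeR adjusted p = 0.217, DESeq2 adjusted p = 0.0289). Gsk3b, the kinase of that complex, read 82.2 and 104 CPM in AKK against 133 and 138 CPM in PBS (-0.54, SE 0.20). Pygo1, a nuclear co-activator, read 0.177 and 0.137 CPM in AKK against 1.14 and 0.778 CPM in PBS. AKK was the lower group in both libraries for these 4 genes. Pygo1, with 10 and 8 reads in AKK against 61 and 37 in PBS, passed the filter only through its PBS reads. It could therefore only differ in this direction, and the 4 lower genes include it.

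In the list of surface and secreted modulators, 17 of 21 were tested, and 0 passed in edgeR or DESeq2. At an unadjusted p under 0.05, 2 were higher (11.8%, against 6.7% of all genes) and 2 lower (11.8%, against 8.62%). Frzb, a Frizzled-related inhibitor, read 3.24 and 4.68 CPM in AKK against 1.63 and 0.589 CPM in PBS (log2 fold change 1.83, SE 0.61), opposite in direction to its relative Sfrp2. Cthrc1, a secreted glycoprotein of activated fibroblasts that favours the planar polarity branch, read 25.4 and 17.9 CPM in AKK against 11.3 and 4.06 CPM in PBS (1.49, SE 0.51). Ror2, a receptor tyrosine kinase for Wnt5a, read 0.354 and 0.548 CPM in AKK against 1.93 and 1.24 CPM in PBS (-1.81, SE 0.54), the same direction as its ligand. Gpc3, a glypican used as a marker of hepatocellular carcinoma, had 0.0177 and 0.0685 CPM in AKK against 0.731 and 0.336 CPM in PBS. Gpc3 passed the filter only through its PBS reads, so it could only be lower in AKK. Of 12 planar cell polarity genes, all tested, 0 had an unadjusted p under 0.05, 6 were positive and 6 negative. The 2 with the smallest p were Daam1, a formin of the cell cortex (33.3 and 42.0 CPM in AKK, 52.7 and 52.7 CPM in PBS), and Fuz, a regulator of cilia (9.09 and 6.22 CPM in AKK, 4.16 and 4.54 CPM in PBS).

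Targets of the pathway were divided into general targets and targets of pericentral hepatocytes. Of 20 general targets, 17 were tested, 12 with a positive value (70.6%, against 51.8% of all genes) and 5 with a negative one (median 0.18 on the log2 scale). The classical targets Myc (152 and 146 CPM in AKK, 111 and 157 in PBS) and Ccnd1 (499 and 942 CPM in AKK, 861 and 857 in PBS), chosen after their values were seen, overlapped between the groups. Birc5, the survivin gene, read 84.1 and 62.0 CPM in AKK against 49.5 and 48.8 CPM in PBS (0.57, SE 0.21, edgeR adjusted p = 0.301). Mmp7, a matrix protease of epithelia, read 3.49 and 2.86 CPM in AKK against 0 reads in both PBS libraries, at least 50.3-fold higher in AKK with PBS set to the floor of 3 reads per library (edgeR adjusted p = 0.173, DESeq2 adjusted p = 1.30e-07). Mmp7 passed the filter only through its AKK reads. Tnfrsf19 read 0.248 and 0.103 CPM in AKK against 1.65 and 0.315 CPM in PBS.

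Of 12 beta-catenin targets of pericentral hepatocytes, 11 were tested, with 9 positive (81.8%, against 51.8% of all genes) and a median log2 fold change of 1.53. DESeq2 called 5 higher (45.5%, against 2.04% of all genes) and 1 lower (9.09%, against 2.98%), and edgeR called 0. At an unadjusted edgeR p under 0.05, 5 were higher (45.5%, against 6.7% of all genes) and 1 lower (9.09%, against 8.62%). The cytochrome Cyp2e1 read 13.4 and 2.38 CPM in AKK against 0.131 and 0.126 CPM in PBS (5.91, SE 1.01, edgeR adjusted p = 0.182). Cyp1a2, Gulo and Rgn likewise read 0.377 to 5.31 CPM in AKK and at most 0.0375 CPM in PBS. Reads in AKK alone carried these 4 genes past the filter, so their direction was fixed by it. Hepatocyte markers differed with them: 17 of 18 were higher in both AKK libraries (94.4%, against 26.7% of all genes; median of the log2 fold changes 7.11). Serpina1c, Fga, Pck1, Cyp3a11 and Hpd were at 0 in PBS 1. Hnf4a held most of the PBS sum of these markers, and the others were low there. Markers with too few PBS reads for the filter passed it only with their AKK reads, so their direction was fixed by it. Their fold changes, and with them the median, depend on the prior count. AKK 1 exceeded AKK 2 for all 4 pericentral genes and for albumin. The part of hepatocyte content in the pericentral values was not tested. Glul, the glutamine synthetase gene and the usual pericentral marker, which was named after its value was seen, read 164 and 138 CPM in AKK against 107 and 130 CPM in PBS (0.34, SE 0.20, edgeR adjusted p = 0.453). Oat, likewise named afterwards, read 4.94 and 5.14 CPM in AKK against 10.3 and 9.67 CPM in PBS and was the gene that DESeq2 called lower.

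**Figure D5:**
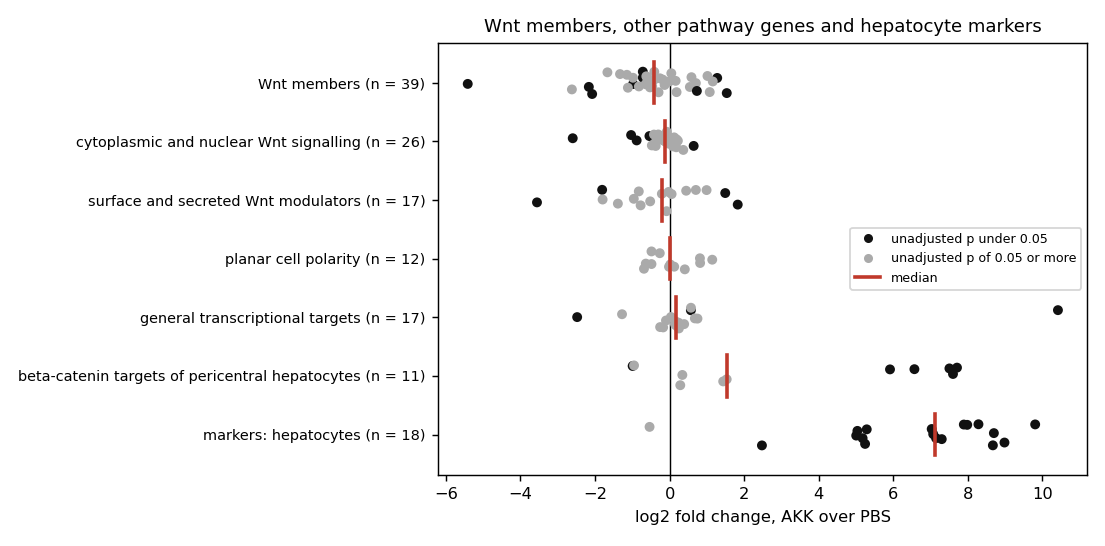
Log2 fold change of AKK over PBS for the tested genes of 7 lists (points; red bars are medians, black points have an unadjusted p under 0.05). The median of the Wnt members is -0.42, of pericentral targets 1.53 and of hepatocyte markers 7.11; the values of Mmp7 and of genes near 0 in PBS depend on the prior count.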

How the data were processed

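Raw read counts per gene, unstranded and for each strand, were deposited by the authors for 4 libraries of paired 151-base reads, per the file headers and labels. The tools STAR 2.5.2 and RSEM 1.2.31 are listed per the submitters' processing notes, and the build and annotation behind them are not stated in the sources used here. Counts of the gene's own strand were used (95.4 to 96.2% of stranded reads). Summary rows that name no gene held 27.6 to 31.4% of counted reads and were left out. Of 48526 identifiers, 48058 matched a symbol. From these counts, CPM and log2 fold changes were computed with edgeR 4.0.16 in R 4.3.3 (TMM, filter on low counts, quasi-likelihood test, 17479 genes, prior count 0.125), with DESeq2 1.42.0 and limma 3.58.1 as alternatives, beside other scalings, filters, strands, a replicate block and each library left out. Members and lists were chosen with earlier results of these data known. By rule, values in every library were given for tested members with an unadjusted p under 0.05, for those with a mean log2 CPM of 1 or more whose groups did not overlap, and for the 2 most abundant of each role. Some other members are shown too, as any member may be named. Other pathway lists gave up to 4 genes with an unadjusted p under 0.05, or else the 2 with the smallest p, and marker lists their 2 most abundant genes. Simulated counts were drawn from a negative binomial model of counts, with each gene's mean and spread taken from these data. With 100 genes changed 4-fold and 100 changed 32-fold, edgeR called 53 and 98 of them, with 22 false calls. DESeq2 called 64 and 93 of them, with 81 false calls, and limma called 52 and 98, with 24 false calls. In the real data edgeR did not call Sfrp2 at a log2 fold change of -5.42 (edgeR adjusted p = 0.186). The simulated shares therefore cannot be carried over to the members, and a member not called is not shown to be unchanged. Intervals and floors cover counting error only, since reads carry no molecular identifiers.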

Additional observations from a re-analysis of the deposited data

How the results depend on the processing

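The number of genes past the threshold was 1 in the edgeR test as reported. It was 3 with upper-quartile scaling, 631 without the filter on low counts, 878 with DESeq2, 0 with limma, 4 with the newer form of the edgeR fit, 209 with the replicate block and 3 at a threshold of 0.1, and lay between 0 and 324 with each library left out. For the Wnt members the count was 0, against 1 without the filter, 4 with DESeq2, 1 with the replicate block (Sfrp2, adjusted p = 0.0398), and 0 to 1 with each library left out. For the other pathway genes it was 0, against 6 without the filter, 10 with DESeq2, 5 with the replicate block, and 0 to 6 with each library left out. The DESeq2 count of members lay between 1 and 6, and the 9 members with an unadjusted edgeR p under 0.05 became 16 without the filter and 7 to 13 with each library left out; these were chosen after seeing the data. Deviations of libraries with the same replicate number were not correlated across genes (correlation -0.0153). This cannot show whether the samples were paired, so the block may join samples that share only a number. The median log2 fold change of the members lay between -0.65 and 0.16 with each library left out, the last without PBS 1 and over 41 members. Porcn turned to 0.13 with limma and 0.12 with the block, and lay between -0.65 and 0.90 with each library left out. Sfrp1 turned to 0.055 with upper-quartile scaling, 0.72 with limma, 0.0056 with unstranded counts and 0.74 with the block, and lay between -0.92 and 2.69. With each library left out, Lgr6 lay between -0.72 and 0.27, Wls between -0.80 and 0.067, and Dkk2 between -1.44 and 1.22. Of 207 values of the 23 named members under alternatives with all 4 libraries, 195 kept direction and side of the threshold. The cause of these changes was not tested. The 21 members that were not tested had at most 15 reads in a library.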
